A study of Mus musculus with 12 samples.

Results

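Transcripts of the 39 Hox cluster genes were followed through the differentiation of mouse embryonic stem cells, out of 23336 genes counted. Members were all gene symbols made of Hox, a cluster letter from a to d and a paralogue number, which gave 11 genes of the Hoxa cluster, 10 of Hoxb, 9 of Hoxc and 9 of Hoxd. The study used 3 lines, a female line labelled RlimKO, the female WT line Pgk12.1 and the male WT line E14, and asked about X inactivation in cells without Rlim, an X-linked ubiquitin ligase gene. Differentiated cells spent 3 days as embryoid bodies without LIF, the cytokine that maintains stem cells, and 6 further days in culture at 7.5% oxygen. Undifferentiated cells were kept in medium with LIF. Every sample was labelled C57BL/6, and each of the 6 combinations of line and state had 2 libraries. Each genotype was a single line and the sexes were different lines, so line, sex and genotype cannot be told apart. Nothing in the labels tells if the 2 libraries of a group had separate cultures as their source, and the spread behind the p-values may therefore be technical.

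Hox genes encode homeodomain transcription factors that give cells of the embryo their position along the body axis. Within a cluster, genes of low paralogue number are active early and towards the head, and genes of high number are active later and towards the tail. Genes of equal number in different clusters are paralogues, descended from duplications of 1 ancestral cluster. In mouse stem cells the clusters are held silent by Polycomb complexes, and retinoic acid, WNT signals and Cdx factors are known to open them during differentiation. Limbs, blood, kidney and gut later use Hox genes of their own.

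On the GRCm38 assembly, of the mm10 build that the submitters' processing notes name, the Hoxa cluster spans chromosome 6 from 52155590 to 52260880 and Hoxb chromosome 11 from 96194316 to 96368256. Hoxc spans chromosome 15 from 102921103 to 103036852 and Hoxd chromosome 2 from 74668310 to 74765142. RefSeq promoters were matched for 22 of the 39 members, in 24 windows of the 250 bases before a transcript start. A promoter of each cluster is shown to set the sequence beside the transcript levels, with motif matches in capitals. The windows are chr6:52260881-52261130 (minus strand) for Hoxa13, chr11:96318017-96318266 (plus) for Hoxb4, chr15:103034145-103034394 (plus) for Hoxc4 and chr2:74721728-74721977 (plus) for Hoxd4, all on GRCm38.p6.
Hoxa13: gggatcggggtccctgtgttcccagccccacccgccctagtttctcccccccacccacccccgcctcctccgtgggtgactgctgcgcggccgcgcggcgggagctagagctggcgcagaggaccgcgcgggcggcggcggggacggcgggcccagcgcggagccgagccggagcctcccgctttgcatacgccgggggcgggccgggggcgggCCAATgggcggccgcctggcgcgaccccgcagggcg
Hoxb4: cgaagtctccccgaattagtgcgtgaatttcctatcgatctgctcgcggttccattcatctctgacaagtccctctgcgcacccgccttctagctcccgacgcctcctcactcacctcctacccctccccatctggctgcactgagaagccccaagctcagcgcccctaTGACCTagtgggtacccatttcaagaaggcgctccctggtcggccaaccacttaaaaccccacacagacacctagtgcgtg
Hoxc4: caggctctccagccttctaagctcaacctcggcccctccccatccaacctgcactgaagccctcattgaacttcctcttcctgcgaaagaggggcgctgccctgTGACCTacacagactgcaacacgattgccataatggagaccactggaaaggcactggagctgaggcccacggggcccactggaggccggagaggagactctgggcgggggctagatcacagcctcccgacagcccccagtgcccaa
Hoxd4: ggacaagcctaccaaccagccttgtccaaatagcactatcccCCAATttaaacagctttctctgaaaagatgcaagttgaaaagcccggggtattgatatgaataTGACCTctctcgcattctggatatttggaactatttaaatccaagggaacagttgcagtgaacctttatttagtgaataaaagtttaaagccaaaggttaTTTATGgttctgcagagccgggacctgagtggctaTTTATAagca

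Motifs were searched on both strands. The Cdx motif was given the letters TTTATG. The half-site bound by retinoic acid receptors was AGGTCA, which reads TGACCT when it lies on the opposite strand. The E-box was searched as CACGTG. The element known as the CCAAT box was searched by those letters. The TATA box was searched as TATAAA, which reads TTTATA from the opposite strand. The joint motif of PBX and HOX proteins was TGATTNAT. No match overlaps another in the 4 windows shown. AGGTCA was present in 6 of the 24 Hox windows (25.0%), against 14.0% of 32841 promoter windows of the same length. TTTATG was present in 5 Hox windows (20.8%), against 10.8% of all windows. CCAAT was present in 58.3% of Hox windows and 33.9% of all windows. The E-box was found in 16.7% of Hox and 6.02% of all windows, TATAAA in 16.7% and 12.4%, and TGATTNAT in 8.33% and 2.83%. Median GC content was 58.6% in Hox windows and 52.4% in all windows. These are matches of letters, given as a description.

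Libraries held 2011919 to 5401940 counts in genes, and 6.36% to 67.7% of these lay in Rn45s, a ribosomal RNA precursor. Levels are CPM, counts per 1000000 of the library size after TMM scaling by the edgeR package, so that 1 CPM was only a few reads. Rlim itself stood at 290.1 and 299 CPM in differentiated RlimKO-labelled females, against 258 and 266 CPM in differentiated WT females. Undifferentiated cells had 159.96 and 150.04 CPM in RlimKO-labelled females, against 267 and 282 CPM in WT females. Rlim transcripts were thus present under the RlimKO label, and summed gene counts cannot show whether a deleted part was transcribed. Replicates of differentiated males differed far more over all genes (chi-square per degree of freedom 26.9) than those of the other 5 groups (1.92 to 2.44). Hox levels in CPM are therefore given by library for these males.

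**Figure D1:**
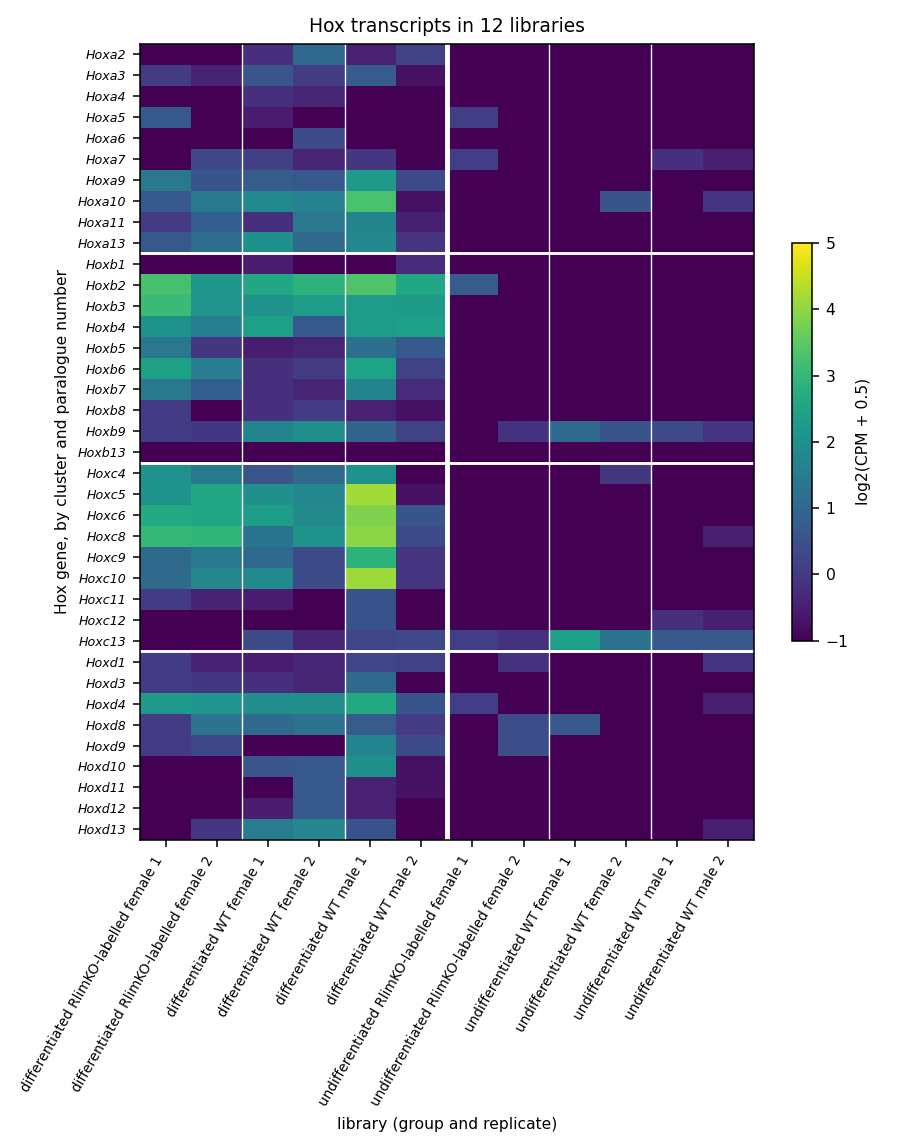
Level of 38 of the 39 Hox genes (rows, by cluster and paralogue number) in each of the 12 libraries (columns, differentiated left of undifferentiated), coloured by log2(CPM + 0.5). Most members are dark in the 6 undifferentiated libraries, where Hoxc13 and Hoxb9 stand out, and differentiated male replicates 1 and 2 differ most in the Hoxc rows.

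Differentiated cells carried far more Hox transcripts than undifferentiated cells in all 3 lines. The summed level of the 39 genes was 72.8 and 59.5 CPM in differentiated RlimKO-labelled females, against 4.09 and 3.41 CPM in undifferentiated ones. It was 56.2 and 55.1 CPM in differentiated WT females, against 7.35 and 5.24 CPM in undifferentiated ones. In males it was 147 and 33.8 CPM after differentiation, against 2.97 and 4.19 CPM before. Differentiated and undifferentiated libraries did not overlap in any line, while the differentiated male libraries lay above and below all 4 differentiated female libraries. The smallest exact permutation p for 2 libraries against 2 is 0.333, so such sums are described and not tested. In bulk RNA, fewer cells that express a gene and less RNA per cell cannot be told apart.

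Of the 39 members, 38 had at least 1 count in a differentiated library, and 21 had counts in all 6 of them. Hoxb13, a tail and prostate gene, had 0 counts in every library. In contrast, 24 members had 0 counts in all 6 undifferentiated libraries. Only 13 members passed the expression filter and were tested, of which 12 are described by name. The 13 passed mostly through the differentiated libraries, so their direction on differentiation was largely set by the filter. The other 26 members did not exceed 6.89 CPM in any library.

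By edgeR's quasi-likelihood test, 8 of the 13 tested members were higher in differentiated than in undifferentiated RlimKO-labelled females (adjusted p below 0.05), where 26.4% of all 12814 tested genes were higher. In WT females 6 members were higher, with a background of 26.5%, and in males 11, with a background of 28.7%. None was lower in any line, where 21.6%, 22.2% and 25.4% of all tested genes were. In RlimKO-labelled females, WT females and males, 9, 10 and 8 of the 13 had 0 undifferentiated counts and could not have come out lower. This limit also bears on the overlaps and medians that follow. The groups did not overlap for 13, 13 and 11 of the 13 members in RlimKO-labelled females, WT females and males, where 41.6%, 42.3% and 38.2% of tested genes were higher without overlap. The members' median log2 fold change was 6.15, 6.36 and 6.26 in the 3 lines, against 0.10, 0.09 and 0.05 over all tested genes. Because most members had 0 undifferentiated counts, these fitted values depend on the prior count. With such genes set to their lower bound (3 counts spread over the undifferentiated group), the members' medians were 2.71, 2.08 and 3.50.

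The paralogues 1 to 4, active in the hindbrain and neck of the embryo, held 4 of the 5 genes called in all 3 lines. These were Hoxb2, Hoxb3, Hoxb4 and Hoxd4, beside Hoxc6 of the trunk class. Too low to test were 7 of 12 members of paralogues 1 to 4, 7 of 11 of 5 to 8 and 12 of 16 of 9 to 13. The share of all genes called in all 3 lines was not computed, so no enrichment of a class is drawn from this. Hoxb3, a hindbrain gene, stood at 7.97 and 3.90 CPM in differentiated RlimKO-labelled females, 3.75 and 4.50 CPM in WT females and 4.36 and 4.30 CPM in males, against 0 in every undifferentiated library. All 6 differentiated libraries were thus well above all undifferentiated ones. It was at least 7.01-fold higher after differentiation in RlimKO-labelled females (edgeR adjusted p = 0.00144), at least 5.43-fold in WT females (adjusted p = 0.00262) and at least 10.4-fold in males (adjusted p = 0.000541). These were the only calls of a gene kept in all 3 lines whichever 1 of the 12 libraries was omitted. Annotated exons of Hoxb3 share 52.9% of their bases with Hoxb3os, an antisense RNA, and the library type as described does not mark strand.

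Hoxb2, which gives a hindbrain segment its identity, stood at 9.03 and 3.90 CPM in differentiated RlimKO-labelled females, 5.52 and 6.89 CPM in WT females and 9.64 and 5.48 CPM in males. Undifferentiated libraries had 1.17 and 0 CPM in RlimKO-labelled females and 0 in both other lines. The differentiated libraries were all higher. The ratio was 11.2 in RlimKO-labelled females (95% counting interval 2.86 to 96.3, edgeR adjusted p = 0.0107). Hoxb2 was at least 8.15-fold higher in WT females (adjusted p = 0.0019) and at least 16.4-fold higher in males (adjusted p = 0.000278). The call in RlimKO-labelled females did not hold without undifferentiated replicate 2 or without differentiated replicate 1 of the line (adjusted p up to 0.122), while the other 2 calls held without any 1 library. Hoxb2 exons share 27.3% of their bases with Hoxb3os.

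Hoxb4, a gene of the hindbrain and of blood stem cells, stood at 3.72 and 2.44 CPM in differentiated RlimKO-labelled females, 4.74 and 1.06 CPM in WT females and 4.36 and 4.83 CPM in males, and at 0 in all undifferentiated libraries. WT female replicate 2 was the lowest of the 6, and still above every undifferentiated library. Hoxb4 was at least 3.84-fold higher in RlimKO-labelled females (edgeR adjusted p = 0.015), at least 4.22-fold in WT females (adjusted p = 0.0127) and at least 11.3-fold in males (adjusted p = 0.00143). Without either undifferentiated RlimKO-labelled library the first call was lost (adjusted p up to 0.0935). The second was lost without either undifferentiated WT female library or differentiated WT female replicate 1 (adjusted p up to 0.0983).

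Hoxd4, a retinoic acid responsive gene of the hindbrain and cervical vertebrae, stood at 4.25 and 3.90 CPM in differentiated RlimKO-labelled females, 3.35 and 3.44 CPM in WT females and 5.74 and 0.967 CPM in males. Undifferentiated libraries had 0.584 and 0 CPM in RlimKO-labelled females, 0 and 0 in WT females and 0 and 0.220 CPM in males. All differentiated libraries were higher, male replicate 2 by the least. The ratio was 16.3 in RlimKO-labelled females (interval 2.65 to 669.5, edgeR adjusted p = 0.0292) and 18.0 in males (interval 3.02 to 731, adjusted p = 0.0119), and Hoxd4 was at least 4.53-fold higher in WT females (adjusted p = 0.0137). The RlimKO-labelled call was lost without any 1 of the 4 libraries of that line (adjusted p up to 0.219). The WT female call was lost without either undifferentiated WT female library (up to 0.0781), and the male call without either undifferentiated male library or differentiated male replicate 1 (up to 0.0743). Hoxd4 exons share 52.3% of their bases with Hoxd3 and noncoding neighbours, which makes its count uncertain.

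The paralogues 5 to 8 are genes of the trunk. Hoxc6, a thoracic gene, stood at 5.84 and 5.36 CPM in differentiated RlimKO-labelled females, 4.54 and 3.18 CPM in WT females and 13.8 and 0.967 CPM in males, and at 0 in all undifferentiated libraries. The female libraries lay close together and the male ones on either side of them. Hoxc6 was at least 7.46-fold higher in RlimKO-labelled females (edgeR adjusted p = 0.0238), 5.28-fold in WT females (adjusted p = 0.0388) and 12.2-fold in males (adjusted p = 0.00541). The call was lost without any 1 of the 4 RlimKO-labelled libraries (adjusted p up to 0.133). In WT females it was lost without any 1 of their 4 libraries or either differentiated RlimKO-labelled library (adjusted p up to 0.159), and in males without undifferentiated replicate 2 (adjusted p = 0.0514).

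Hoxc8, which patterns thoracic vertebrae and motor neurons, stood at 7.44 and 7.07 CPM in differentiated RlimKO-labelled females, 1.97 and 3.71 CPM in WT females and 15.2 and 0.752 CPM in males. It had 0 counts in 5 undifferentiated libraries and 0.220 CPM in male replicate 2. Differentiated RlimKO-labelled libraries were both above the WT female ones. Hoxc8 was at least 9.72-fold higher after differentiation in RlimKO-labelled females (edgeR adjusted p = 0.0181). The ratio in males was 38.6 (interval 6.72 to 1546, adjusted p = 0.00937). In WT females Hoxc8 was at least 3.62-fold higher but did not pass the test (adjusted p = 0.0741). Without either undifferentiated library or differentiated replicate 2 of the RlimKO-labelled line the first call was lost (adjusted p up to 0.114). Without either undifferentiated male library or differentiated male replicate 1 the second was lost (adjusted p up to 0.143).

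Hoxb6, a trunk and lateral plate gene, stood at 4.78 and 2.44 CPM in differentiated RlimKO-labelled females, 0.395 and 0.530 CPM in WT females and 5.05 and 0.645 CPM in males, and at 0 in all undifferentiated libraries. WT females and male replicate 2 were low, and the other 3 differentiated libraries were high. It was at least 4.30-fold higher after differentiation in RlimKO-labelled females (edgeR adjusted p = 0.029) and at least 4.94-fold in males (adjusted p = 0.0151). In WT females 4 counts stood against 0, too few for a fold (adjusted p = 0.312). The call in RlimKO-labelled females was lost without any 1 of their 4 libraries (adjusted p up to 0.142), and that in males if an undifferentiated male library was omitted (adjusted p up to 0.0972).

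Hoxc5, a gene of the neck and lung, stood at 3.72 and 5.36 CPM in differentiated RlimKO-labelled females, 3.55 and 2.91 CPM in WT females and 17.4 and 0.107 CPM in males, and at 0 in all undifferentiated libraries. Male replicate 2 held a single count, the lowest of the 6. Hoxc5 was at least 6.56-fold and 4.38-fold higher in RlimKO-labelled and WT females, which did not pass the test (edgeR adjusted p = 0.0869 and 0.124). In males it was at least 13.6-fold higher (adjusted p = 0.0176). The call was lost, with an adjusted p of up to 0.414, without differentiated male replicate 1 or without an undifferentiated male one. Annotated exons of Hoxc5 and Hoxc10 share 5.37% of the Hoxc5 bases.

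The paralogues 9 to 13 pattern the lower back, limbs and genitalia. Hoxa13, a gene of digits and the urogenital tract, stood at 1.06 and 1.71 CPM in differentiated RlimKO-labelled females, 3.55 and 1.59 CPM in WT females and 2.98 and 0.430 CPM in males, and at 0 in all undifferentiated libraries. It was low in every library and highest in WT female replicate 1. It was at least 2.04-fold higher in RlimKO-labelled females (edgeR adjusted p = 0.0894), 3.62-fold in WT females (adjusted p = 0.0337) and 3.00-fold in males (adjusted p = 0.032). The WT female call was lost without either undifferentiated WT female library, differentiated WT female replicate 1 or differentiated RlimKO-labelled replicate 2 (adjusted p up to 0.137). The male call was lost without either undifferentiated male library or differentiated male replicate 1 (adjusted p up to 0.155).

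Hoxc10, a lumbar and hindlimb gene, stood at 1.59 and 2.93 CPM in differentiated RlimKO-labelled females, 3.16 and 0.795 CPM in WT females and 16.8 and 0.430 CPM in males, and at 0 in all undifferentiated libraries. Its level in male replicate 1 was far above that of the other 5 differentiated libraries. Hoxc10 was at least 13.6-fold higher in males (edgeR adjusted p = 0.013, but up to 0.114 without either undifferentiated male library or differentiated replicate 1). It was at least 3.39-fold and 2.87-fold higher in RlimKO-labelled and WT females, which did not pass the test (adjusted p = 0.148 and 0.164).

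Hoxa10 and Hoxb9 were tested but called in no line, and are named here after their values were seen. Hoxa10, a gene of the uterus and lumbar region, stood at 1.06 and 2.19 CPM in differentiated RlimKO-labelled females, 3.16 and 2.65 CPM in WT females and 9.18 and 0.107 CPM in males (edgeR adjusted p = 0.165, 0.249 and 0.0555 against undifferentiated cells). Hoxb9, a thoracic gene, stood at 0.531 and 0.488 CPM in differentiated RlimKO-labelled females, 2.76 and 3.44 CPM in WT females and 1.38 and 0.645 CPM in males. Its undifferentiated libraries had 0 and 0.426 CPM, 1.58 and 0.953 CPM, and 0.743 and 0.441 CPM in these lines. The Hoxb9 libraries of the 2 states overlapped in males and lay closest together in RlimKO-labelled females (edgeR adjusted p = 0.611, 0.193 and 0.516).

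The count of members called depended on single libraries. The share of all genes called in the same fits is not set beside it. A general change of the fit therefore cannot be told from one of these members. In RlimKO-labelled females the 8 calls became 2 and 1 without undifferentiated replicates 1 and 2 of the line, and 4 without either differentiated replicate. In WT females the 6 calls became 2 without either undifferentiated replicate and 3 without differentiated replicate 1, but 10 without either differentiated male library. In males the 11 calls became 5 and 4 without undifferentiated replicates 1 and 2, and 6 without differentiated replicate 1. Of the 25 calls of a gene in a line, 7 held whichever library was omitted, among them those of Hoxb3 in the 3 lines, of Hoxb2 in WT females and males, and of Hoxb4 in males.

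Levels between members were compared per kilobase of annotated exon, as the mean of a group's 2 libraries. In differentiated RlimKO-labelled females the order of these levels was led by Hoxc8 at 2.56 and Hoxc6 at 2.33 CPM per kilobase. In WT females it was led by Hoxb2 at 1.78, Hoxc6 at 1.60 and Hoxb9 at 1.21 CPM per kilobase. In males Hoxc10 at 4.50, Hoxc6 at 3.06 and Hoxc5 at 2.84 CPM per kilobase came first as means of the divergent libraries, each carried by replicate 1. Neighbours in these orders were not tested against each other.

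Undifferentiated cells held 67 Hox counts in all, against 1829 in differentiated cells. Hoxc13, a gene of hair and nails named here after its values were seen, made up 23 of the 67 and Hoxb9 another 10, together 49.3%. Hoxc13 was the one member clearly more abundant before differentiation in a line, with 0.789 and 0.265 CPM in differentiated and 4.73 and 1.91 CPM in undifferentiated WT females. That ratio was 0.174 (interval 0.0486 to 0.520, counting error only), and Hoxc13 did not pass the expression filter. In males it stood at 0.689 and 0.752 CPM after differentiation, against 1.11 and 1.10 CPM before, with an interval of the ratio (0.235 to 1.93) that spans 1. No other member exceeded 1.58 CPM in an undifferentiated library.

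Between the undifferentiated lines 0 of 13 members were called by edgeR and 0 by DESeq2 in each of the 3 comparisons, with 0 at an unadjusted p below 0.05. The background of all genes called was 0.242% for RlimKO-labelled against WT females, 10.0% for RlimKO-labelled females against males and 6.63% for WT females against males. Hoxa13, Hoxb3, Hoxb4, Hoxb6, Hoxc5, Hoxc6 and Hoxc10 had 0 counts in all 6 undifferentiated libraries, so no call was possible for them. No other tested member had more than 10 counts over these libraries. At this depth a level below about 0.739 CPM in RlimKO-labelled females, 0.750 CPM in WT females or 0.415 CPM in males could have gone undetected.

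**Figure D2:**
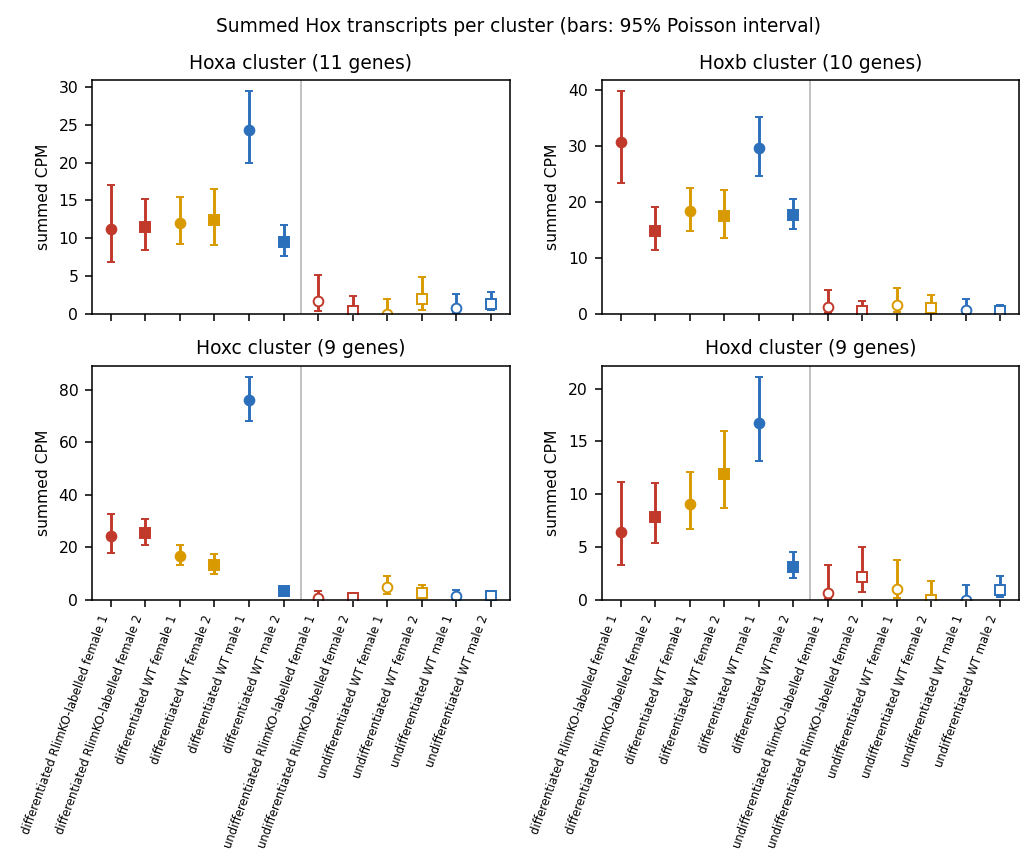
Summed CPM of each Hox cluster (one panel each, own scale from 0) in each of the 12 libraries, with 95% Poisson intervals as bars, filled for differentiated and open for undifferentiated cells. Hoxc reaches 76.2 CPM in differentiated male replicate 1 and 3.44 CPM in replicate 2, while the 4 differentiated female libraries lie between 13.2 and 25.4 CPM.

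All 4 clusters were more abundant in each differentiated library than in any undifferentiated library of the same line. The Hoxa sum was 11.2 and 11.5 CPM in differentiated RlimKO-labelled females, 12.0 and 12.5 CPM in WT females and 24.3 and 9.56 CPM in males. The Hoxb sum was 30.8 and 14.9 CPM in RlimKO-labelled females, 18.3 and 17.5 CPM in WT females and 29.6 and 17.7 CPM in males. Hoxa was nearly equal in the 4 female libraries, and Hoxb differed between the RlimKO-labelled replicates by a ratio of 2.07 (interval 1.42 to 3.02). The Hoxc sum was 24.4 and 25.4 CPM in RlimKO-labelled females, 16.8 and 13.2 CPM in WT females and 76.2 and 3.44 CPM in males. The Hoxd sum was 6.38 and 7.80 CPM in RlimKO-labelled females, 9.08 and 11.9 CPM in WT females and 16.8 and 3.12 CPM in males. Between the female lines, Hoxc was higher and Hoxd lower in both RlimKO-labelled libraries, without overlap.

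The paralogue classes were set side by side as shares of a library's Hox counts. Paralogues 1 to 4 made up 48.2% (exact binomial interval 39.6 to 56.9%) and 36.5% (30.4 to 42.9%) of the Hox counts in RlimKO-labelled females and 39.3% (33.6 to 45.2%) and 39.9% (33.2 to 46.9%) in WT females. In males they made up 23.8% (20.5 to 27.2%) and 72.7% (67.4 to 77.5%). The female lines overlapped for this class and lay between the male replicates. Paralogues 5 to 8 made up 38.7% and 41.4% in RlimKO-labelled females, 24.6% and 26.0% in WT females and 39.4% and 13.3% in males. Paralogues 9 to 13 made up 13.1% and 22.1% in RlimKO-labelled females, 36.1% and 34.1% in WT females and 36.9% and 14.0% in males. Intervals cover counting error only, since amplified duplicates of a molecule could not be removed.

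**Figure D3:**
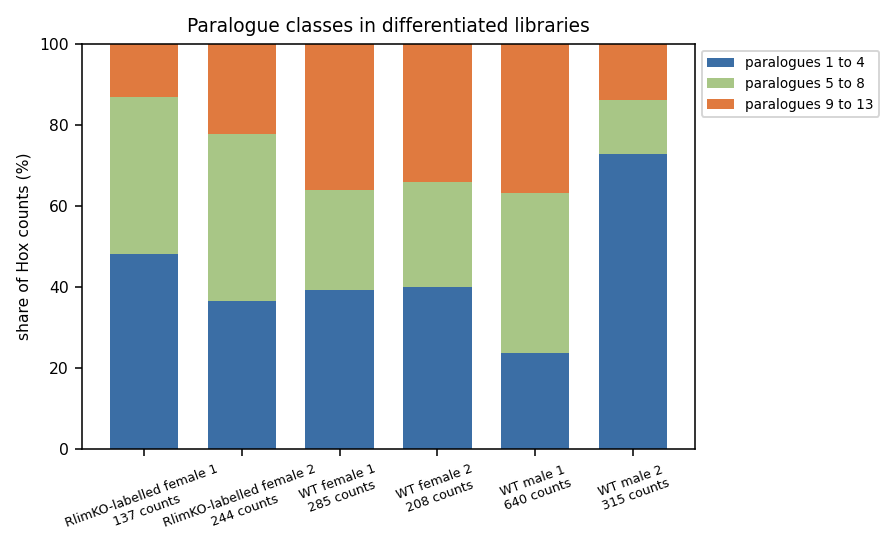
Share of all Hox counts (vertical axis, %) held by paralogues 1 to 4, 5 to 8 and 9 to 13 in each of the 6 differentiated libraries, with the library's Hox counts under its name. Paralogues 1 to 4 hold 72.7% in male replicate 2 and 23.8% in male replicate 1, with the female libraries between 36.5% and 48.2%.

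Differentiated male replicate 1 had 4.34 times the summed Hox level of replicate 2 (interval 3.79 to 4.99), and the difference was uneven along and between the clusters. It was 22.2-fold for Hoxc (interval 15.4 to 33.0), 5.38-fold for Hoxd (3.46 to 8.58), 2.55-fold for Hoxa (1.90 to 3.41) and 1.67-fold for Hoxb (1.32 to 2.12). By paralogue class it was 1.42-fold for paralogues 1 to 4 (1.15 to 1.75), 12.8-fold for 5 to 8 (9.22 to 18.2) and 11.5-fold for 9 to 13 (8.28 to 16.2). The trunk and tail classes thus differed far more than the head and neck class. Of 35 members with a count in either male library, the counting interval of the ratio lay above 1 for 21 and below 1 for 1. The same count was 1 above and 0 below among 29 members in RlimKO-labelled females, and 2 above and 1 below among 36 in WT females. The share of all genes with such an interval was not computed. These male libraries differed over all genes (chi-square per degree of freedom 26.9), so the count cannot be read as particular to Hox genes.

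Among members with a count in both male libraries, the widest ratios belonged to Hoxc5 (76 counts against 1, ratio 162, interval 28.3 to 6500), Hoxa10 (40 against 1, ratio 85.5, interval 14.5 to 3460), Hoxc10 (73 against 4, ratio 39.0, interval 14.6 to 147) and Hoxd10, a limb gene (15 against 1, ratio 32.1, interval 4.93 to 1350). By contrast Hoxb3 stood at 4.36 and 4.30 CPM and Hoxb4 at 4.36 and 4.83 CPM in male replicates 1 and 2. These pairs were picked after their values were seen.

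**Figure D4:**
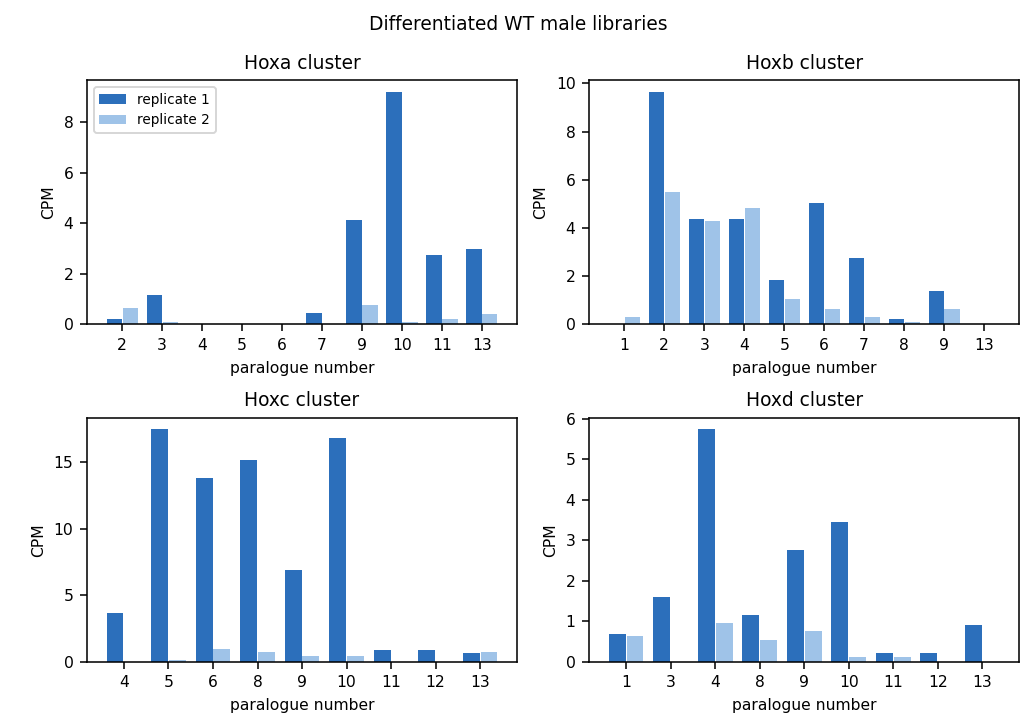
CPM of 38 of the 39 Hox genes in differentiated male replicate 1 (dark bars) and replicate 2 (light bars), by paralogue number in each cluster, each panel with its own scale from 0. Replicate 1 is higher at nearly every gene of Hoxc, while Hoxb3 and Hoxb4 are alike.

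Markers of other cell types also differed between these male libraries. Replicates 1 and 2 had a summed 369 and 62.4 CPM for 8 blood and endothelial markers, 9479 and 3079 CPM for 9 fibroblast markers and 50.1 and 24.5 CPM for 9 markers of paraxial and limb mesoderm. They had 477 and 1051 CPM for 6 markers of simple epithelium, 824 and 1012 CPM for 11 of visceral endoderm and 705 and 551 CPM for 10 of lateral and cardiac mesoderm. Neural markers summed to 85.4 and 47.8 CPM over 12 genes and pluripotency markers to 41.6 and 91.2 CPM over 8 genes. Among defining markers, Hba-a1 and Fap were at 0 in both libraries, as were the neural factors Sox1 and Pax6. Hba-a1, Fap and Sox1 were also at 0 in every differentiated female library, so their zeros do not set these males apart. Rn45s took up 22.5% and 6.36% of the counts of replicates 1 and 2, and the column name of replicate 2 stands outside the numbered series of the others. The part of these differences in the Hox levels was not tested.

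The female lines were compared to ask whether the RlimKO label went with a Hox difference after differentiation. By edgeR 0 of 13 members were called (0 by DESeq2, 3 at an unadjusted p below 0.05), where 2.59% of all genes were called. RlimKO-labelled libraries were above WT female ones without overlap for 6 members and below for 2, where 27.0% and 28.4% of all genes were. Hoxb6 had 4.78 and 2.44 CPM in RlimKO-labelled against 0.395 and 0.530 CPM in WT females (a log2 difference of 2.82 ± 1.14, adjusted p = 0.272). Hoxb9 had 0.531 and 0.488 CPM in RlimKO-labelled against 2.76 and 3.44 CPM in WT females (-2.54 ± 0.86, adjusted p = 0.151). Hoxc8 had 7.44 and 7.07 CPM in RlimKO-labelled against 1.97 and 3.71 CPM in WT females (1.36 ± 0.99, adjusted p = 0.587). Hoxb6, Hoxb9 and Hoxc8 did not pass the test in the model of all 12 libraries, although the libraries of the lines did not overlap. Hoxc8 was not among the 3 members at an unadjusted p below 0.05.

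That model takes its spread from all groups, the divergent male pair included. In a model of the 4 differentiated female libraries alone, 17.5% of all genes and 4 of the 13 members were called, among them Hoxb6 (edgeR adjusted p = 0.00956) and Hoxc8 (0.0164) as higher and Hoxb9 (0.0193) as lower in the RlimKO-labelled line. Without differentiated male replicate 1, where 12.9% of all genes were called, Hoxb6 (adjusted p = 0.0225) and Hoxb9 (0.0323) were called, and without replicate 2, where 12.8% were, Hoxb6 (0.0197), Hoxb9 (0.0349) and Hoxc8 (0.0472).

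**Figure D5:**
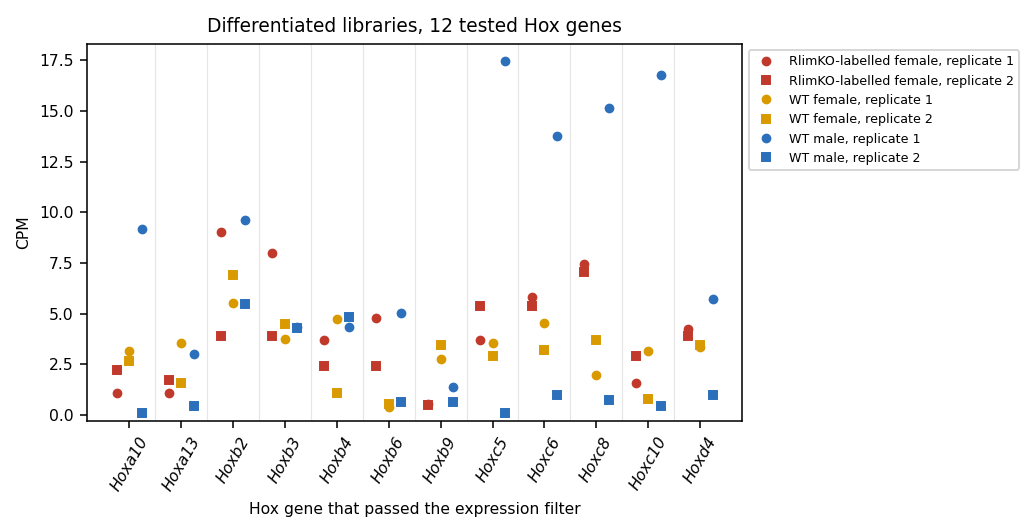
CPM of 12 of the 13 tested Hox genes in the 6 differentiated libraries, with circles for replicate 1 and squares for replicate 2. RlimKO-labelled libraries lie above WT female ones at Hoxb6 and Hoxc8 and below at Hoxb9, and male replicates 1 and 2 enclose the females at Hoxc5, Hoxc6, Hoxc8 and Hoxc10.

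The paralogue classes of the female lines differed in the same libraries. Paralogues 5 to 8 summed to 28.2 and 24.6 CPM in RlimKO-labelled females, against 13.8 and 14.3 CPM in WT females. Paralogues 9 to 13 summed to 9.56 and 13.2 CPM in RlimKO-labelled females, against 20.3 and 18.8 CPM in WT females. Paralogues 1 to 4 overlapped, with 35.1 and 21.7 CPM in RlimKO-labelled and 22.1 and 22.0 CPM in WT females. Single members of a class did not all share its direction. Over all tested genes, RlimKO-labelled libraries were above WT female ones without overlap for 27.0% and below for 28.4%. Of the 12 members of paralogues 1 to 4, of which 7 were not tested, they were above for 4 and below for 2. Of the 11 members of paralogues 5 to 8, of which 7 were not tested, they were above for 6 and below for 0. Of the 16 members of paralogues 9 to 13, of which 12 were not tested, they were above for 3 and below for 6. Among the untested ones, named after their values were seen, Hoxd13, a digit gene, had 0 and 0.488 CPM in RlimKO-labelled against 2.37 and 2.91 CPM in WT females, and Hoxd10 had 0 and 0 against 0.986 and 1.06 CPM. Hoxd9 lay the other way, with 0.531 and 0.732 CPM in RlimKO-labelled against 0 and 0 in WT females, as did Hoxc9 with 1.59 and 2.19 against 1.58 and 0.795 CPM and Hoxc11, both by little. In exact permutation, 2 libraries against 2 cannot go below a p of 0.333.

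Marker sums also differed between the differentiated female lines. The 9 paraxial and limb mesoderm markers summed to 26.0 and 22.7 CPM in RlimKO-labelled against 51.3 and 55.6 CPM in WT females, with 0 of 7 tested called. Pluripotency markers summed to 63.8 and 59.3 CPM against 139 and 137 CPM, with 4 of 8 called lower. Neural markers summed to 42.5 and 46.1 CPM against 124 and 136 CPM, with 1 of 6 called lower, and visceral endoderm to 478 and 419 CPM against 708 and 730.1 CPM, with 1 of 9 called higher and 3 lower. Lateral and cardiac mesoderm markers summed to 537 and 538 CPM in RlimKO-labelled against 409.6 and 397 CPM in WT females, with 1 of 9 called higher and 3 lower, and fibroblast markers to 11730.1 and 11449.6 CPM against 8365 and 7211 CPM, with 0 of 8 called. In RlimKO-labelled libraries Meox2 was at 0 in both, and in WT females no paraxial marker was at 0. The part of these differences in the Hox levels was not tested.

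Against males, the direction of most called Hox differences turned on which male library was used. RlimKO-labelled females differed from males at 0 of 13 members by edgeR and 0 by DESeq2 (0 at an unadjusted p below 0.05), where 11.6% of all genes were called. WT females differed from males at 0 by edgeR and 0 by DESeq2 (2 at an unadjusted p below 0.05, among them Hoxb9 at 1.68 ± 0.68 with adjusted p = 0.138), where 8.97% of all genes were called. Without male replicate 1, 7 members were called higher in RlimKO-labelled females than in males, and without male replicate 2, 4 were called lower. For WT females these counts were 7 higher and 1 lower without replicate 1, and 6 lower without replicate 2. Over all genes, 34.4% and 33.4% were called in RlimKO-labelled and WT females against males without replicate 1, and 19.0% and 16.5% without replicate 2. Hoxc5 shows the reversal, with a log2 difference between RlimKO-labelled females and males of 5.05 without male replicate 1 (edgeR adjusted p = 5.83e-05) and -1.89 without replicate 2 (adjusted p = 0.00178). Between WT females and males its log2 difference was 4.56 (adjusted p = 0.000342) and -2.40 (adjusted p = 6.94e-05) in these fits. Both comparisons share the male libraries.

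The change on differentiation was also compared between lines. By edgeR the difference was called for 0 of 13 members in each of the 3 pairs of lines and for 0 by DESeq2, with 0 at an unadjusted p below 0.05. The background was 0.203% for RlimKO-labelled minus WT females, 2.61% for RlimKO-labelled females minus males and 1.39% for WT females minus males. For members with 0 counts in both undifferentiated groups this difference has no measured baseline, so the test could not have called them.

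Cofactors of Hox proteins were more abundant in differentiated cells too. Among all tested genes, 26.4%, 26.5% and 28.7% were higher in RlimKO-labelled females, WT females and males. The TALE homeodomain proteins of the Pbx, Meis and Pknox families bind DNA together with Hox proteins, and 7 of 9 were higher and 0 lower in each line, with median log2 fold changes of 2.57, 3.51 and 2.53 in RlimKO-labelled females, WT females and males. Meis2 stood at 68.0 and 55.1 CPM in differentiated against 2.34 and 0.852 CPM in undifferentiated RlimKO-labelled females (log2 fold change 5.33 ± 0.79, edgeR adjusted p = 7.22e-05). In WT females it had 107 and 101 against 1.05 and 2.86 CPM (5.68 ± 0.72, adjusted p = 1.64e-05), and in males 81.5 and 17.7 against 1.11 and 0.882 CPM (5.59 ± 0.75, adjusted p = 2.19e-05). Every differentiated library was above every undifferentiated one, and male replicate 2 was the lowest of the differentiated libraries. Meis1 had 38.1 and 8.16 CPM in differentiated male replicates 1 and 2, so both Meis genes were lower in the same library as the Hoxc genes.

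Genes that neighbour or precede the clusters were also followed. Cdx2, a caudal factor that acts upstream of trunk Hox genes, was the only tested gene of 6 ParaHox and Cdx genes and was higher in all lines. It stood at 5.31 and 4.63 CPM in differentiated RlimKO-labelled females, 3.75 and 2.91 CPM in WT females and 5.51 and 2.47 CPM in males, with 1 count in all undifferentiated libraries together (edgeR adjusted p = 0.00217, 0.00466 and 0.00202). Evx1, a homeobox gene at the end of the Hoxa cluster, had 3.72 and 3.90 CPM in differentiated RlimKO-labelled females, 4.74 and 2.91 CPM in WT females and 5.74 and 1.29 CPM in males, and was higher in each line (adjusted p = 0.011, 0.0261 and 0.00384). Its partner at the Hoxd end, Evx2, had a single count in all. Of 17 tested genes that flank the clusters, 1 was higher and 4 lower in RlimKO-labelled females, 1 and 7 in WT females and 2 and 9 in males, with medians of -0.06, -0.22 and -0.69. The flanking genes thus did not share the direction of the Hox genes. Over all tested genes 26.4% were higher and 21.6% lower in RlimKO-labelled females, 26.5% and 22.2% in WT females and 28.7% and 25.4% in males. None of 10 noncoding cluster genes in the table passed the filter.

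Of 14 tested genes of retinoic acid synthesis, breakdown and reception, 5 were higher and 3 lower in RlimKO-labelled females, 7 and 2 in WT females and 4 and 2 in males. The shares of all tested genes higher and lower were 26.4% and 21.6%, 26.5% and 22.2%, and 28.7% and 25.4% in these lines. Rarb, a retinoic acid receptor and itself a retinoic acid target, had 9.56 and 8.53 CPM in differentiated RlimKO-labelled females, 16.6 and 20.7 CPM in WT females and 10.1 and 6.87 CPM in males, at most 1.17 CPM before, and was higher in all 3 (adjusted p = 0.000448, 5.63e-06 and 9.45e-05, edgeR). Cyp26a1, which breaks down retinoic acid, had 0.531 and 0 CPM in differentiated RlimKO-labelled females against 9.08 and 7.68 CPM in WT females, and was called lower (edgeR adjusted p = 0.0216). Of 6 tested genes of axial elongation, 3 were higher and 1 lower in each line. Wnt5a, a WNT ligand of the extending axis, had 30.8 and 33.6 CPM in differentiated RlimKO-labelled females, 24.9 and 27.6 CPM in WT females and 27.1 and 43.4 CPM in males, at most 0.953 CPM in undifferentiated cells. The tail bud gene T reached at most 0.882 CPM in any library.

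Among chromatin regulators of the clusters, 16 Polycomb genes, which repress Hox genes, were tested. Of these 4 were higher and 6 lower in RlimKO-labelled females, 2 and 8 in WT females and 4 and 9 in males, where 26.4% and 21.6%, 26.5% and 22.2%, and 28.7% and 25.4% of all genes were. Cbx7, a subunit of Polycomb repressive complex 1, had log2 fold changes of -3.49 ± 0.29, -2.88 ± 0.26 and -2.85 ± 0.24 in RlimKO-labelled females, WT females and males (edgeR adjusted p = 3.04e-07, 7.51e-07 and 2.67e-07). In males it stood at 10.6 and 19.98 CPM after differentiation, against 124 and 104 CPM before. Phc2, of the same complex, was higher, by 2.09 ± 0.32, 2.44 ± 0.32 and 1.91 ± 0.29 (adjusted p = 8.74e-05, 2.54e-05 and 6.64e-05), with 50.7 and 49.5 CPM in differentiated against 11.5 and 14.8 CPM in undifferentiated males. Of 9 trithorax and MLL genes, which maintain Hox activity, 2 were higher and 5 lower, 3 and 6, and 2 and 5 in these lines. Dpy30, a core subunit of MLL complexes, had log2 fold changes of -1.98 ± 0.27 in RlimKO-labelled females, -1.87 ± 0.26 in WT females and -2.38 ± 0.25 in males (adjusted p = 3.35e-05, 3.78e-05 and 2.3e-06). Male libraries of Dpy30 had 8.72 and 13.7 CPM after differentiation, against 62.4 and 58.2 CPM before.

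Cell type markers also changed on differentiation, in both directions. Pluripotency markers were lower for 7, 8 and 8 of 8 genes in RlimKO-labelled females, WT females and males, with sums of 41.6 to 139 CPM in differentiated against 1411 to 1657 CPM in undifferentiated libraries. Over all genes, 21.6%, 22.2% and 25.4% were lower and 26.4%, 26.5% and 28.7% higher in these lines. Visceral endoderm markers were higher for 8, 9 and 9 of 9 tested genes and lateral and cardiac mesoderm markers for 7, 9 and 9 of 9, with 0 lower. Fibroblast markers were higher for 7 of 8 in each line, with 1 lower in males. Paraxial and limb mesoderm markers were higher for 2, 5 and 6 of 7 and blood and endothelial markers for 4, 5 and 5 of 7, each with 1 lower in each line. Simple epithelium had 4 higher and 2 lower of 6 in each line. Kidney and intermediate mesoderm had 1, 2 and 1 higher of 3, with 1 lower in each line. Of 6 tested neural markers, 1 was higher and 5 lower in each line. The neural factors Sox1, Neurog2 and Olig2 were at 0 in all 6 differentiated libraries, but Neurog2 and Olig2 also in all 6 undifferentiated ones. Neural sums in differentiated against undifferentiated libraries were 124 and 136 against 80.9 and 89.6 CPM in WT females. They were 42.5 and 46.1 against 95.7 and 77.6 CPM in RlimKO-labelled females and 85.4 and 47.8 against 75.8 and 80.0 CPM in males. Which of these cells held the Hox transcripts was not tested.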

How the data were processed

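RNA of 12 samples was measured as gene counts. Per the labels' protocols, cDNA was made with template switching, amplified, tagmented and amplified again. The submitters' processing notes name TopHat2 2.0.12, edgeR 3.10.0, HTSeq 0.6.1p1, bcl2fastq 2.16.0.10 and mm10, while annotation and strand setting are not given in the sources used here. The deposited values are raw counts per gene. Reads in no gene (45.4% to 53.3%) and other summary lines were left out. Counts of all genes were fitted in edgeR 4.0.16 (R 4.3.3) as 6 groups with TMM scaling, its default filter and the quasi-likelihood F test. A gene was called at a Benjamini-Hochberg adjusted p below 0.05 over 12814 genes. Steps were tested on simulated data. Coordinates came from GENCODE vM21, and 16 members share exonic bases with other genes. A floor of 3 counts gave lower bounds. The members and lists were chosen with earlier results of these data known. Members called in a pairwise comparison, or averaging 5 CPM in a group, are given by library, except 1 that is not reported here. Genes of other lists were named by small p in a comparison (at most 4 a list), or after their values were seen. Alternatives included DESeq2 1.42.0, other scaling and filters, a replicate block and libraries left out.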

Additional observations from a re-analysis of the deposited data

How the results depend on the processing

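The members higher on differentiation numbered 8, 6 and 11 in RlimKO-labelled females, WT females and males by the main settings, and the same with RLE size factors, without Rn45s and Lars2, and with replicate number as a block (8, 6 and 11). Replicate numbers did not pair the libraries, with correlations of same-numbered deviations from -0.07 to 0.10 over 15 pairs of groups. DESeq2 called 7, 6 and 12. With no filter the counts were 13, 10 and 20 of 38 tested (33.1%, 33.5% and 37.4% of all genes called). Models of only the compared libraries gave 12, 10 and 5 (57.0%, 59.3% and 38% of all genes). With RlimKO-labelled replicate 1 and male replicate 2 both left out of the differentiated libraries, they were 12, 10 and 12 (52.3%, 58.3% and 58.6% of all genes). Leaving out 1 library gave 1 to 12, 2 to 10 and 4 to 12. Between differentiated lines, where 0 were called, the compared libraries alone gave 4 for RlimKO-labelled against WT females (17.5% of all genes), and no filter gave 2 for WT females against males (8.93%). Without the 2 libraries just named, 3 were called for RlimKO-labelled females against males and 6 for WT females against males (14.7% and 16.1% of all genes). Leaving out 1 library gave 0 to 3 for RlimKO-labelled against WT females, 0 to 7 for RlimKO-labelled females against males and 0 to 8 for WT females against males. It gave 0 to 0 for the undifferentiated lines and the differences in change. For DESeq2 and the fits without 1 library, the share of all genes called on differentiation is not set beside these counts. The causes were not tested. Depth limits the rest, since 26 members were too low to test.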
